A study of Arabidopsis thaliana with 6 samples.

Results

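The 26S proteasome subunit genes of Arabidopsis thaliana were examined here in the RNA of mutant and wild-type seedlings. The set comprised 40 of the 33189 genes in the deposited expression table, chosen by gene identifier: 12 genes for alpha subunits and 11 genes for beta subunits of the 20S core particle, 10 genes for RPT ATPases and 7 genes for RPN subunits of the regulatory particle. All 40 identifiers were in the table. The study asked what TONSOKU (TSK), a nuclear protein needed for genome maintenance during replication, does for repressive chromatin. Whole seedlings of 7 days gave 3 RNA libraries of the mutant tsk-4 and 3 of the wild type, both in the Col ecotype. No treatment, Cre or transgene is named, and the labels do not describe the lesion of tsk-4 or how far it was back-crossed. Replicate numbers came from the titles. The labels do not say whether replicates are separate cultures. The p-values therefore reflect the spread among these libraries and nothing wider, and that spread may be technical.

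The 26S proteasome degrades proteins that carry chains of ubiquitin. Its 20S core is a barrel of stacked rings, with alpha subunits at the ends, which gate entry, and beta subunits in the middle, which hold the peptidase sites. The regulatory particle caps the barrel: a ring of RPT ATPases unfolds the substrate, and RPN subunits bind and remove ubiquitin and hold the cap together. In Arabidopsis many subunits are encoded by a pair of similar genes, and in plants and animals the subunit genes are known to be induced together when proteasome activity is short.

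Sequence upstream of the members is shown first because members that move together may share sequence there. The window was the 250 bases before the annotated gene start, read from the RefSeq assembly TAIR10.1, whose gene models matched all 40 members. The motif searched on both strands was TGGGC, the core of the site II element and of an element described for Arabidopsis proteasome genes. PBA1, PBB1 and PBB2 encode peptidase subunits that rose in tsk-4 and have 3 matches each, and RPT6B rose by more than these 3 and has none. These genes were picked for display, and the most matches, 4 each, are in RPN1A and RPN8A. Capitals mark each match, written TGGGC or, on the other strand, GCCCA. The windows lie at chr4:15188494-15188743 on the plus strand for PBA1, chr3:10152208-10152457 on the plus strand for PBB1, chr5:16250926-16251175 on the minus strand for PBB2 and chr5:6756383-6756632 on the plus strand for RPT6B.
PBA1: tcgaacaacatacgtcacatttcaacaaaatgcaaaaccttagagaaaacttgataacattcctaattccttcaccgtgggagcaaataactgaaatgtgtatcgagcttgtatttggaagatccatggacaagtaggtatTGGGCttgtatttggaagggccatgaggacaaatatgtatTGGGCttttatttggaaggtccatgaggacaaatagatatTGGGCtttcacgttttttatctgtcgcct
PBB1: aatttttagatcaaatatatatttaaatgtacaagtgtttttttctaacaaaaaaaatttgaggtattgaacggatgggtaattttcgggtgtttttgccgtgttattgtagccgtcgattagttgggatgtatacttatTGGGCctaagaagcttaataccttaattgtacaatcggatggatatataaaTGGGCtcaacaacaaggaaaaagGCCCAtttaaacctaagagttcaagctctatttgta
PBB2: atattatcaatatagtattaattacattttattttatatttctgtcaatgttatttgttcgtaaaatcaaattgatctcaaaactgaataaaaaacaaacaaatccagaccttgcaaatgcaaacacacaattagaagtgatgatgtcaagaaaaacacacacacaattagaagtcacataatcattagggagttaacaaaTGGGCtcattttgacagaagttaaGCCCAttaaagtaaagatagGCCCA
RPT6B: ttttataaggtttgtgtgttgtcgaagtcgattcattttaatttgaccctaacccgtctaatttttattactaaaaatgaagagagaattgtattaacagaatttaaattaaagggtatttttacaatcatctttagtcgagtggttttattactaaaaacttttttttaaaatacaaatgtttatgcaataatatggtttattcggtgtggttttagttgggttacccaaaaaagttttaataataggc

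At least 1 TGGGC match lay in this window in 18 of 40 members (45.0%), against 25.7% of the 19047 tested protein-coding genes with a window and 22.7% of all 27443 protein-coding genes of the table. At least 2 matches were found in 14 members (35%), against 15.4% of tested protein-coding genes. Matches were present in 5 of 12 alpha genes, 7 of 11 beta genes, 3 of 10 RPT genes and 3 of 7 RPN genes. The nearest match lay 5 to 93 bases before the gene start, with a median of 40.5. The 18 genes held 41 matches in all, where a palindrome that holds the motif on both strands, in PAD1 and in RPN1A, counts once for each strand. A second motif, AAACCCTA, the telo box of many Arabidopsis translation genes, was found on either strand in 2 members (RPT4A and RPN6), which is 5.0%, against 3.52% of tested protein-coding genes. A match is a description of the letters and not of a bound site, and the absence of one says only that these letters are not in this window. In 17 members another annotated gene reaches into the window, though not in the 4 shown.

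The levels rest on 14418394 to 14946295 reads in the tsk-4 libraries and 13726929 to 14934533 reads in the Col libraries. These were recovered from the deposited TPM, transcript levels scaled to 1000000 in each library, which came out as whole reads, within 0.02 reads, for 100% of values above 0. A member had 181 to 3125 reads in a tsk-4 library and 132 to 2792 reads in a Col library, where 1 read in a gene of 1 kb is worth 0.149 to 0.164 TPM. TSK itself checked the labels: it measured 0.831, 0.959 and 0.918 TPM in tsk-4, against 3.73, 3.35 and 3.78 TPM in Col, a log2 change of -1.55 ± 0.20 (SE; limma adjusted p = 0.000966). A log2 change below is the difference in log2(TPM + 0.5), tsk-4 minus Col, with its SE, and a call is an adjusted p under 0.05 from limma, adjusted by the Benjamini-Hochberg method over 19574 tested genes. The seedling label was checked by marker genes of leaf, root, pollen and seed. The seed marker CRA1 was at 25.7 to 95.0 TPM over the libraries. The 5 leaf markers summed to 43000 ± 488 TPM in tsk-4 and 55297 ± 572 TPM in Col (SD, n = 3 each), the 4 root markers were all above 0, and of the 4 pollen markers 3 were at 0 in all libraries and the fourth was above 0 in 1 Col library only.

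Proteasome subunit genes were higher in tsk-4 as a group, by a small amount each. Of the 40 members, 28 rose, none fell and 12 did not pass the test, where 14.9% of all tested genes rose and 4.96% fell. All 40 members had a log2 change above 0 on TPM as deposited, against 63.2% of tested genes, and 39 did with median-ratio scaling, where RPT2b was at -0.04. Their median log2 change was 0.36, with an interquartile range of 0.26 to 0.44, against a median of 0.08 over all tested genes, with an interquartile range of -0.09 to 0.27. The ratio of mean TPM of tsk-4 over Col lay between 1.04 for RPT2b and 1.69 for PAB2, and reached 1.5 in PAB2, PBB2 and RPT6B only. In 36 members every tsk-4 library lay above every Col library, which held for 26.7% of tested genes. The exceptions were PAA1, PAF2, RPT2b and RPN11. The members moved up and down together between libraries, so these counts are not of independent genes and rest on 3 libraries against 3. Members are also expressed higher and measured more tightly than most tested genes, so the shares over all genes are not a like background. In whole seedlings, a change in the number of cells of a type and a change in RNA per cell cannot be told apart.

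The size of the group's change depended on how libraries were scaled. With median-ratio scaling, which centres the median gene near 0, 18 members rose and none fell, while 9.22% of tested genes rose and 8.22% fell. Quantile normalization called 17 members higher, where 8.71% of tested genes rose and 8.48% fell. limma-voom on the recovered reads called 20 members higher, where 9.67% rose and 9.03% fell. No member fell in these fits either. The same 17 members rose in all 4 fits: PAB1, PAB2, PAD1, PAD2, PAE1, PAG1, PBA1, PBB1, PBB2, PBD2, PBF1, PBG1, RPT2a, RPT3, RPT6B, RPN10 and RPN12a. The members called on TPM as deposited but not with median-ratio scaling were PAF1, PBC1, PBC2, PBD1, PBE1, RPT1A, RPT4A, RPT5A, RPN6 and RPN8A. Without the second Col library, 18 members and 1798 of all tested genes rose on TPM as deposited.

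**Figure D1:**
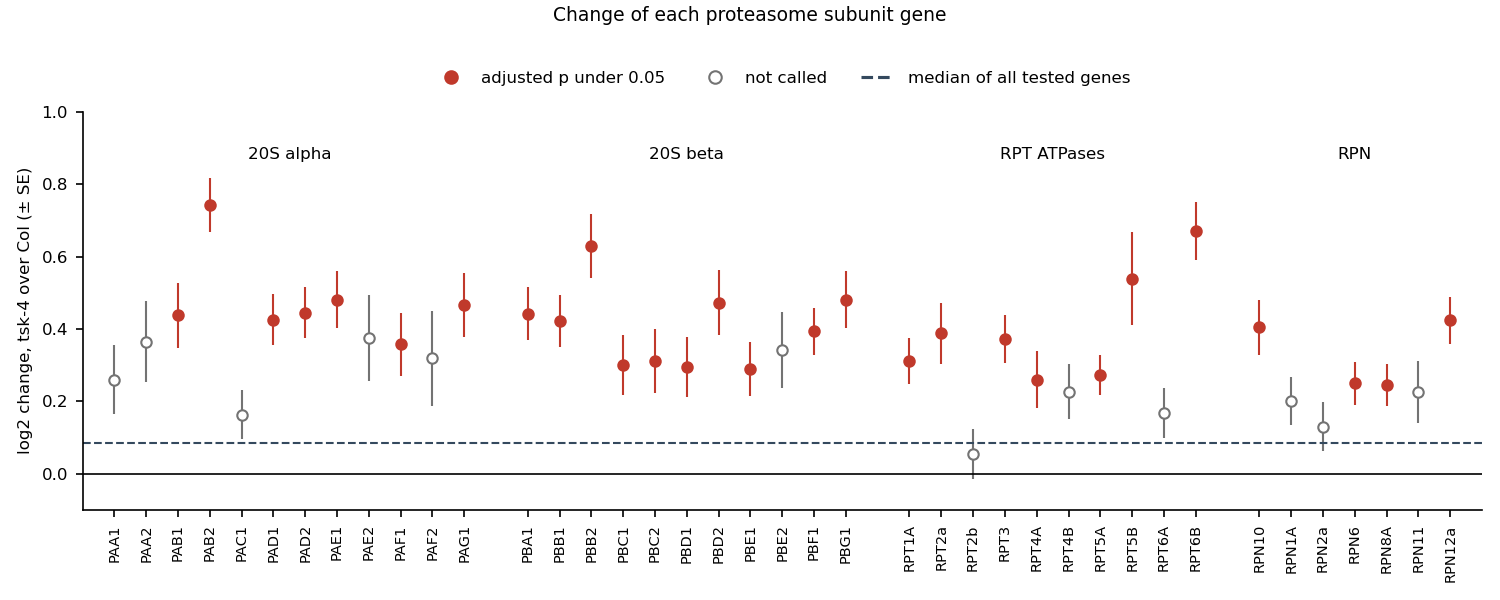
Log2 change of each member in tsk-4 over Col (y axis, log2 scale, bars show ± SE from limma) by subunit group, with filled points for an adjusted p under 0.05 and a dashed line at the median of all tested genes, 0.08. All 40 points lie above 0 on TPM as deposited, between 0.05 for RPT2b, which is at -0.04 with median-ratio scaling, and 0.74 for PAB2.

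The 12 genes of alpha subunits, which form the outer rings of the core, summed to 775, 873 and 821 TPM in the tsk-4 libraries, against 596, 623 and 693 TPM in the Col libraries. The sum was 29.1% higher in tsk-4, and the libraries of the genotypes did not overlap. Of the 12 genes, 7 rose, where 14.9% of all tested genes rose, and the median log2 change over the 12 was 0.40. The largest change of any member was that of PAB2 (AT1G79210, alpha2), at 42.7, 47.3 and 45.6 TPM in tsk-4, against 26.9, 25.4 and 28.2 TPM in Col (log2 change 0.74 ± 0.08, limma adjusted p = 0.000277). PAB1 (AT1G16470), the other alpha2 gene, had 39.3, 45.5 and 39.5 TPM in tsk-4, against 30.1, 28.1 and 33.2 TPM in Col (log2 change 0.44 ± 0.09, adjusted p = 0.0105). For both copies all tsk-4 libraries were above the Col libraries. In TAIR10.1 PAB2 lies at chr1:29796081-29798836 and PAB1 at chr1:5622746-5625683.

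The alpha4 genes moved by near-equal amounts. PAD1 (AT3G51260) had 99.5, 115 and 109 TPM in tsk-4, against 75.9, 80.9 and 83.3 TPM in Col (log2 change 0.43, limma adjusted p = 0.00383). PAD2 (AT5G66140) had 63.6, 72.2 and 66.7 TPM in tsk-4, against 47.8, 48.6 and 51.8 TPM in Col (log2 change 0.45, adjusted p = 0.0031). In the alpha5 pair only PAE1 passed the test. PAE1 (AT1G53850) had 51.5, 58.4 and 55 TPM in tsk-4, against 37.7, 37.7 and 42.4 TPM in Col (log2 change 0.48, adjusted p = 0.00347). PAE2 (AT3G14290) had 38.4, 39.4 and 38.3 TPM in tsk-4, against 24.4, 30.9 and 34.9 TPM in Col (log2 change 0.37, adjusted p = 0.0547), so its Col libraries were spread more widely than its tsk-4 libraries.

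PAF1 (AT5G42790, alpha6) had 81.0, 95.9 and 92.0 TPM in tsk-4, against 63.3, 71.0 and 75.3 TPM in Col (log2 change 0.36, limma adjusted p = 0.021). PAG1 (AT2G27020, alpha7) had 81.2, 87.1 and 88.1 TPM in tsk-4, against 56.0, 59.7 and 70.2 TPM in Col (log2 change 0.47, adjusted p = 0.00688). Both had all tsk-4 libraries above Col. The alpha1 genes did not pass the test. PAA1 (AT5G35590) had 64.2, 73.8 and 68.6 TPM in tsk-4, against 50.6, 57.5 and 64.8 TPM in Col (log2 change 0.26, adjusted p = 0.0919), and its lowest tsk-4 library lay just under its highest Col library. PAA2 (AT2G05840) had 50.1, 59.2 and 54.4 TPM in tsk-4, against 36.3, 41.9 and 49.3 TPM in Col (log2 change 0.36, adjusted p = 0.0508), just outside the threshold. PAC1 (AT3G22110, alpha3), with the highest TPM of all members, had 149, 166 and 148 TPM in tsk-4, against 137, 131 and 146 TPM in Col, a log2 change of 0.16 that did not pass (adjusted p = 0.126). PAF2 (AT1G47250), with the lowest TPM of all members, averaged 14.4 ± 0.994 TPM in tsk-4 and 11.6 ± 2.1 TPM in Col (SD, n = 3 each; adjusted p = 0.123). A gene on the other strand covers 1652 of its bases, and whether reads were counted by strand is not given in the sources used here, so its level is uncertain.

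**Figure D2:**
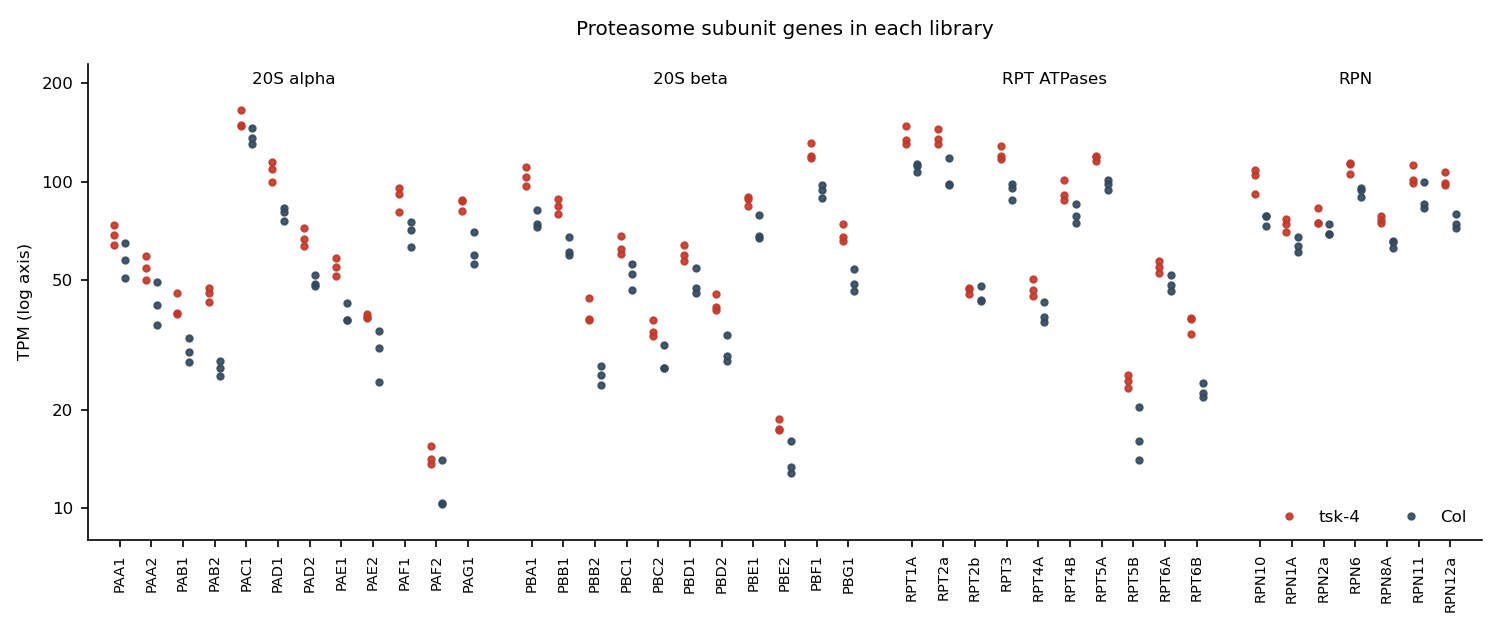
TPM (log axis) of each member in each of the 3 tsk-4 and 3 Col libraries, grouped by subunit class, where each point is 1 library. The member means run between 14.4 and 154 TPM in tsk-4 and between 11.6 and 138 TPM in Col. For 36 of the 40 genes all tsk-4 points lie above all Col points, which held for 26.7% of tested genes.

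In the beta group 10 of 11 members rose on TPM as deposited, where 14.9% of all tested genes rose. The median log2 change over the 11 genes was 0.39. With median-ratio scaling, quantile normalization or limma-voom 6 rose, where 9.22%, 8.71% and 9.67% of all tested genes rose. The sum of the beta genes was 31.5% higher in tsk-4, at 696, 772 and 712 TPM, against 539, 528 and 592 TPM in Col. For each of the 11 genes all tsk-4 libraries lay above all Col libraries, which held for 26.7% of tested genes. The catalytic subunits come first. PBA1 (AT4G31300, beta1, the caspase-like peptidase) had 97.2, 111 and 103 TPM in tsk-4, against 72.8, 74.2 and 81.9 TPM in Col (log2 change 0.44, limma adjusted p = 0.00377). PBB1 (AT3G27430, beta2, the trypsin-like peptidase) had 79.4, 88.5 and 84.0 TPM in tsk-4, against 59.6, 60.8 and 67.5 TPM in Col (log2 change 0.42, adjusted p = 0.00453). The other beta2 gene, PBB2 (AT5G40580), changed most in this group: it had 37.6, 43.9 and 38.0 TPM in tsk-4, against 23.9, 25.6 and 27.3 TPM in Col (log2 change 0.63 ± 0.09, adjusted p = 0.00161). These are 3 of the 4 members whose upstream sequence is printed above.

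PBE1 (AT1G13060, beta5, the chymotrypsin-like peptidase) had 84.1, 89.8 and 88.3 TPM in tsk-4, against 67.4, 68.3 and 79.1 TPM in Col (log2 change 0.29, limma adjusted p = 0.0267). Its less abundant copy PBE2 (AT3G26340) had 17.4, 17.4 and 18.8 TPM in tsk-4, against 13.3, 12.8 and 16.1 TPM in Col (log2 change 0.34, adjusted p = 0.0501), and was the only beta gene that did not pass. The beta5 genes thus lay on either side of the threshold with changes of near-equal size. The remaining beta subunits have no peptidase site of their own. PBF1 (AT3G60820, beta6) had 118, 132 and 120 TPM in tsk-4, against 97.4, 89.1 and 94.2 TPM in Col (log2 change 0.39, adjusted p = 0.00391). PBG1 (AT1G56450, beta7) had 65.8, 74.3 and 67.6 TPM in tsk-4, against 46.1, 48.7 and 53.8 TPM in Col (log2 change 0.48, adjusted p = 0.00377). Both rose in all 4 fits.

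For beta3, PBC1 (AT1G21720) had 62.0, 68.3 and 60.2 TPM in tsk-4, against 55.9, 46.7 and 52.0 TPM in Col (log2 change 0.30, limma adjusted p = 0.0352). PBC2 (AT1G77440) had 33.7, 37.7 and 34.6 TPM in tsk-4, against 26.9, 26.9 and 31.5 TPM in Col (log2 change 0.31, adjusted p = 0.0368). Neither beta3 gene was called with median-ratio scaling. For beta4, PBD1 (AT3G22630) had 59.7, 64.2 and 57.1 TPM in tsk-4, against 47.4, 45.7 and 54.4 TPM in Col (log2 change 0.29, adjusted p = 0.0374). PBD2 (AT4G14800) had 41.3, 45.4 and 40.3 TPM in tsk-4, against 28.2, 29.3 and 33.8 TPM in Col (log2 change 0.47, adjusted p = 0.00686). Of the beta4 pair, PBD2 was called with both scalings and PBD1 only on TPM as deposited.

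The RPT genes encode the ATPase ring that unfolds substrates and opens the core. Their sum was 797, 856 and 799 TPM in tsk-4, against 636, 640 and 703 TPM in Col, 23.9% higher. Of the 10 genes 7 rose, where 14.9% of all tested genes rose, and 4 rose with median-ratio scaling, where 9.22% did. The median log2 change over the 10 was 0.29, against 0.08 over all tested genes. RPT6B (AT5G20000) had the largest change, at 38.1, 37.9 and 34.0 TPM in tsk-4, against 21.9, 24.1 and 22.5 TPM in Col (log2 change 0.67 ± 0.08, limma adjusted p = 0.000646). Its neighbour RPT6A (AT5G19990) had 57.1, 54.7 and 52.4 TPM in tsk-4, against 46.2, 48.2 and 51.8 TPM in Col (log2 change 0.17 ± 0.07, adjusted p = 0.13). The RPT6B libraries were well apart between genotypes, whereas for RPT6A the lowest tsk-4 library and the highest Col library were nearly equal. RPT5B (AT1G09100) had 24.5, 25.5 and 23.3 TPM in tsk-4, against 16.0, 14.1 and 20.5 TPM in Col (log2 change 0.54 ± 0.13, adjusted p = 0.0191). RPT5A (AT3G05530) had 115, 120 and 119 TPM in tsk-4, against 94.5, 98.1 and 101 TPM in Col (log2 change 0.27, adjusted p = 0.0101).

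RPT2a (AT4G29040), needed in Arabidopsis for normal root meristem and organ size, had 130, 145 and 135 TPM in tsk-4, against 98.1, 97.8 and 119 TPM in Col (log2 change 0.39, limma adjusted p = 0.0132). RPT2b (AT2G20140) was the member with the smallest change: it had 47.2, 45.4 and 47.0 TPM in tsk-4, against 43.5, 42.9 and 48.0 TPM in Col (log2 change 0.05 ± 0.07, adjusted p = 0.628), and its genotypes overlapped. RPT2b was also the member whose sign depended on the scaling, at -0.04 with median-ratio scaling. RPT3 (AT5G58290) had 117, 128 and 120 TPM in tsk-4, against 95.9, 87.8 and 98.6 TPM in Col (log2 change 0.37, adjusted p = 0.00551). RPT1A (AT1G53750) had 134, 148 and 130 TPM in tsk-4, against 107, 112 and 113 TPM in Col (log2 change 0.31, adjusted p = 0.0102). Both were separated between genotypes in all libraries. RPT4A (AT5G43010) had 44.8, 50.4 and 46.7 TPM in tsk-4, against 38.4, 37.1 and 42.7 TPM in Col (log2 change 0.26, adjusted p = 0.0493), just inside the threshold. RPT4B (AT1G45000) averaged 93.3 ± 6.82 TPM in tsk-4 and 79.7 ± 5.45 TPM in Col (SD, n = 3 each; log2 change 0.23, adjusted p = 0.0682), just outside it.

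Of the 7 RPN genes 4 rose on TPM as deposited, where 14.9% of all tested genes rose. With median-ratio scaling 2 rose, where 9.22% of all tested genes rose. The median log2 change over the 7 was 0.24, against 0.08 over all tested genes. The sum of the RPN genes was 618, 669 and 651 TPM in tsk-4, against 511, 530 and 561 TPM in Col, 21.0% higher. RPN10 (AT4G38630), a receptor for ubiquitin chains, had 91.7, 109 and 105 TPM in tsk-4, against 73.2, 78.4 and 78.4 TPM in Col (log2 change 0.40, limma adjusted p = 0.00676). RPN12a (AT1G64520), a lid subunit linked to cytokinin responses in Arabidopsis, had 98.8, 107 and 97.7 TPM in tsk-4, against 72.1, 74.4 and 79.5 TPM in Col (log2 change 0.42, adjusted p = 0.00279). These were the RPN genes that rose in all 4 fits.

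RPN6 (AT1G29150), a scaffold of the lid, had 106, 113 and 114 TPM in tsk-4, against 89.6, 94.2 and 95.8 TPM in Col (log2 change 0.25, limma adjusted p = 0.0195). RPN8A (AT5G05780), the partner of the deubiquitinase RPN11, had 76.4, 78.8 and 74.8 TPM in tsk-4, against 62.6, 65.5 and 65.9 TPM in Col (log2 change 0.24, adjusted p = 0.0195). Both had a small spread within each genotype and no overlap between genotypes. RPN11 (AT5G23540), which removes ubiquitin from the substrate, had 101, 113 and 99.1 TPM in tsk-4, against 82.9, 85.2 and 99.8 TPM in Col (log2 change 0.23, adjusted p = 0.0973), with its genotypes overlapping. The large scaffold subunits of the base did not pass either. RPN1A (AT2G20580) averaged 73.7 ± 3.56 TPM in tsk-4 and 64.0 ± 3.27 TPM in Col (log2 change 0.20, adjusted p = 0.0673). RPN2a (AT2G32730) averaged 77.5 ± 4.77 TPM in tsk-4 and 70.7 ± 3 TPM in Col (SD, n = 3 each; log2 change 0.13, adjusted p = 0.217). That the groups of subunits differ from each other in their change was not tested.

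Summed over all 40 members, tsk-4 libraries had 2887, 3170 and 2983 TPM, against 2282, 2322 and 2549 TPM in Col libraries. The mean was 3013 ± 144 TPM in tsk-4 and 2384 ± 144 TPM in Col (SD, n = 3 each), 26.4% higher in tsk-4. A two-sided exact permutation test gave p = 0.1, the smallest that 3 libraries against 3 allow. With median-ratio scaling the sum was 18.7% higher, and without PAC1, RPT1A and RPT2a, the 3 members of highest mean TPM, it was 27.3% higher. Leaf markers moved the other way, with a sum 22.2% lower in tsk-4 and 4 of 5 genes called lower on TPM as deposited, 5 with median-ratio scaling and 2 with quantile normalization, where the median of the 5 turned to 0.02. The sum of the 4 root markers was 125 ± 9.10 TPM in tsk-4 and 96.5 ± 0.469 TPM in Col (SD, n = 3 each), 29.6% higher. Most of this sum was PRP3, at 79.5 TPM in tsk-4 and 58.4 TPM in Col. PRP3 and EXPA18 rose, while EXPA7 and COBL9 were not called, with log2 changes of 0.16 and -0.002. No seed marker was called, and their sum was 75.4 ± 29.5 TPM in tsk-4 and 76.4 ± 38.2 TPM in Col. The seed sum was lowest in the second tsk-4 library, at 41.5 TPM, and in the third Col library, at 40.7 TPM. In each genotype this was the library with the highest sum of members, and a link was not tested. Whether tissue proportions have a part in the change of the proteasome genes was not tested.

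**Figure D3:**
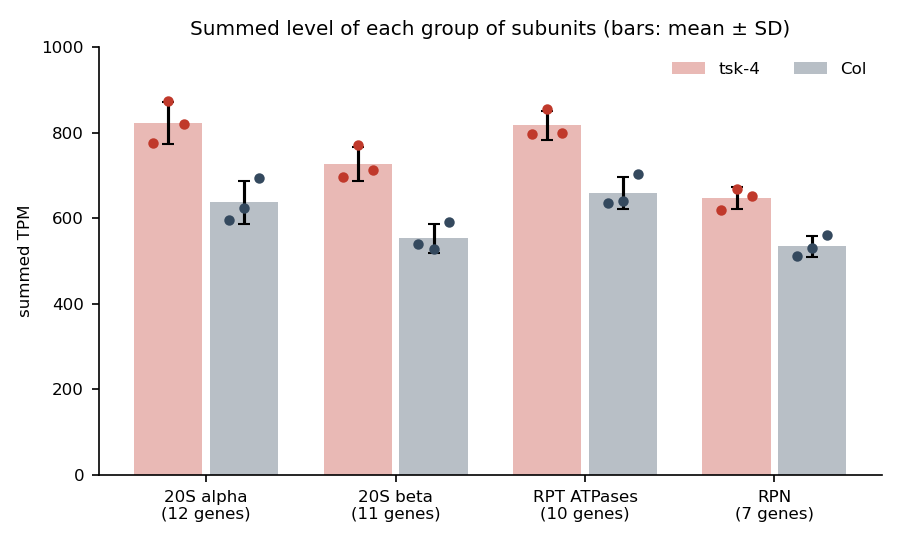
Summed TPM of each group of subunit genes per library (points), with bars for the mean and lines for the SD over 3 tsk-4 or 3 Col libraries. In each of the 4 groups all tsk-4 points lie above all Col points, and the second tsk-4 library and the third Col library are the highest of their genotypes.

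Members varied together between libraries of 1 genotype. The second tsk-4 library was the highest of its genotype for 31 of 40 members (77.5%), against 32.5% of all tested genes. The third Col library was the highest of the Col libraries for 37 members (92.5%), against 41.5% of tested genes, so it lay closest to tsk-4 for nearly all of them. Left out in turn, each library still gave 0 members lower. The count higher was 36 members without the third Col library, where 3364 of the 19574 tested genes rose, and 18 to 21 members without any other single library, where 1798 to 2040 genes rose. The count over all genes thus moved the same way. The members were measured more tightly than most genes. Their median coefficient of variation was 6.10% over tsk-4 libraries and 6.83% over Col libraries, against 8.72% in tsk-4 and 9.71% in Col over all tested genes. Members also lie high in the range of expression, with a median at the 88.0th percentile of tested genes.

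Because TPM was computed over the whole gene span, introns included, levels were compared between subunits in reads per kb of exon per 1000000 reads, with both copies of a pair added. On this scale the 27 subunits lay within a narrow range. In tsk-4 the highest was alpha4 at 123 ± 9.02 and the lowest RPN2 at 55.9 ± 3.25. In Col the highest was RPT2 at 95.3 ± 9.61 and the lowest beta7 at 46.4 ± 3.89 (SD, n = 3 libraries each). Neighbours in this order differed by less than the larger of their SDs, except RPT4 above beta1 and RPN1 above RPN6 in tsk-4 and beta5 above alpha6 in Col. The core subunit alpha2 had the largest ratio of tsk-4 over Col, 1.49, with 87.1 ± 6.08 in tsk-4 and 58.3 ± 4.12 in Col, and RPN2 had the smallest, 1.08. The subunits alpha3, RPT1, RPN1, RPN2, RPN8 and RPN12 have a second gene that is no member and is not counted in these levels.

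Of the 27 subunits, 13 had both genes of a pair among the members, and the share of each copy is a ratio within a library that no scaling of libraries can change. In 6 pairs the libraries of the genotypes did not overlap. How often this holds for other pairs of similar genes was not measured, so the count has no background. RPT6 shifted most: RPT6B made up 44.9%, 45.8% and 44.2% of the pair in tsk-4, against 36.7%, 37.9% and 34.7% in Col, a mean 8.56 percentage points higher. PAB2 made up 53.6%, 52.5% and 55.1% of the alpha2 pair in tsk-4, against 48.7%, 49.0% and 47.5% in Col, so the more abundant copy differed between the genotypes. RPT2 shifted the other way: RPT2b made up 26.8%, 24.0% and 26% in tsk-4, against 30.9%, 30.7% and 29.0% in Col, a difference of -4.63 points. In these pairs every tsk-4 library lay on 1 side of every Col library.

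Smaller shifts without overlap were found for PBD2, at 44.5 ± 0.293% in tsk-4 and 41.4 ± 0.892% in Col, for PBB2, at 28.9 ± 0.955% in tsk-4 and 26 ± 0.506% in Col, and for PAA2, at 34.8 ± 0.306% in tsk-4 and 33.1 ± 0.694% in Col (SD, n = 3 each). Each of the 6 gave p = 0.1 in a two-sided exact permutation test, the smallest this design allows, and 0.217 after Benjamini-Hochberg adjustment over the 13 pairs, so none passed. The other 7 pairs overlapped, among them RPT5B, at 18.5 ± 0.744% in tsk-4 and 15.9 ± 2.29% in Col. In 10 of 13 pairs the copy that was less abundant in Col had the larger log2 change. In some of the 10, among them alpha4, beta3, beta5 and RPT4, the changes of the copies differed by less than the SE of either. The same Col libraries enter both measures, so the count of 10 is a description. Genes on the other strand overlap 449 bases of PBD1, 262 of PBD2 and 105 of PBB2. Whether reads were counted by strand is not given in the sources used here, so the PBD2 and PBB2 shares are uncertain.

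**Figure D4:**
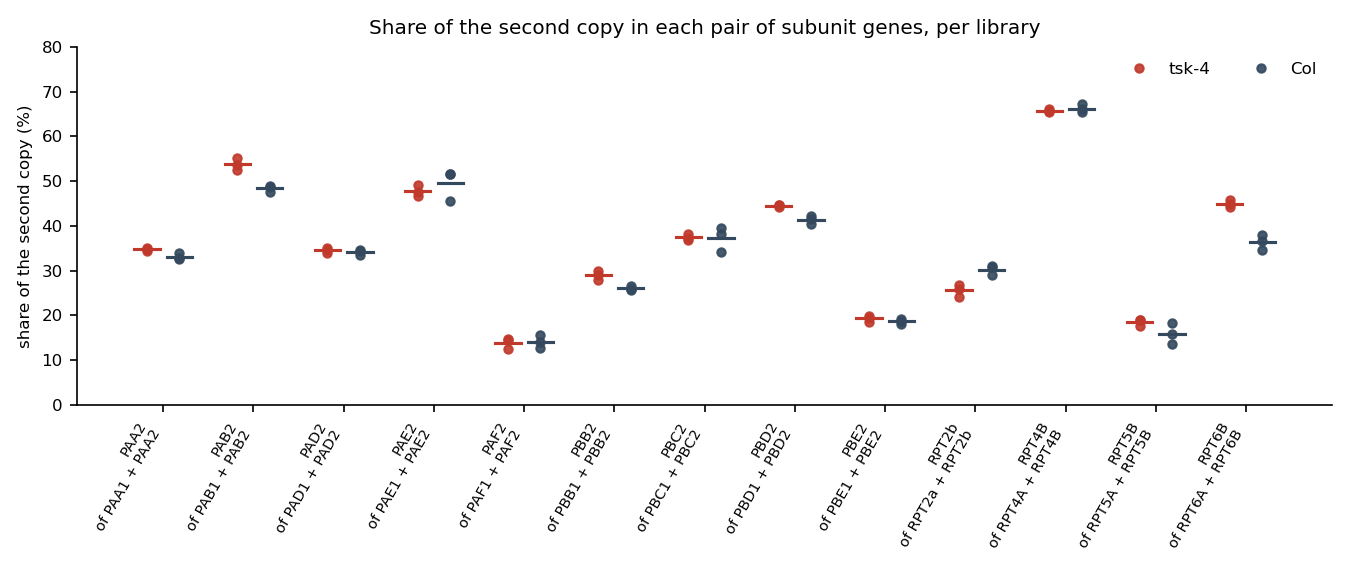
Share of the second copy in each of the 13 pairs of member genes (y axis, percent of reads per kb of exon), with 1 point per library and lines at the mean of 3 tsk-4 or 3 Col libraries. The RPT6B share is 8.56 points higher in tsk-4 and the RPT2b share 4.63 points lower, and in 7 pairs the genotypes overlap.

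How well reads can tell copies apart depends on their sequences. Coding sequences of the 13 pairs were identical at 80.7% (RPT5) to 94.4% (RPT6) of aligned bases. RPT6A, at chr5:6751798-6755315, and RPT6B, at chr5:6756633-6759800, lie side by side on the plus strand, and the longest run without a difference between them was 104 bases. The first 90 coding bases of each are shown because this pair shifted most; capitals mark the 10 bases at which they differ.
RPT6A: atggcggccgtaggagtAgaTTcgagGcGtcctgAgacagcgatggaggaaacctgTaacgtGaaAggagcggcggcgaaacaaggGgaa
RPT6B: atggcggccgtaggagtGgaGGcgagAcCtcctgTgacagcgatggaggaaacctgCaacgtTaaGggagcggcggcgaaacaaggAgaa
Neither the read length nor how reads with more than 1 mapping place were counted is stated in the sources used here, so the split of RPT6 reads between the copies is uncertain. The sum of the RPT6 genes was 63.4 ± 3.30 reads per kb of exon per 1000000 reads in tsk-4 and 49.6 ± 2.40 in Col (SD, n = 3 each), a ratio of 1.28. RPT1A also shares 89.4% of aligned coding bases with RPT1B, which is no member. Of the 40 members, 26 overlap no other annotated gene, 12 overlap a gene on the other strand and 2 a gene on the same strand.

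Members with and without the TGGGC motif are set side by side here, and the difference between them was not tested. Of the 18 members with a match in the window, 14 rose, with a median log2 change of 0.38 and a range of 0.16 to 0.63. Of the 22 without a match, 14 rose, with a median of 0.33 and a range of 0.05 to 0.74. The members with the largest changes fall on both sides: PBB2 has 3 matches, while PAB2 and RPT6B have none. RPN1A and RPN8A have the most matches, 4 each, with log2 changes of 0.20 and 0.24. RPN1A was not called, and RPN8A was called on TPM as deposited but not with median-ratio scaling, quantile normalization or limma-voom.

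Other genes of the pathway were taken from 5 lists made by function. Of their 58 genes 57 were tested, 18 rose and none fell, where 14.9% of all tested genes rose, and their median log2 change was 0.19. With median-ratio scaling 7 of 57 rose, a share near the 9.22% of all tested genes. With quantile normalization 9 rose, where 8.71% of all tested genes rose, and with limma-voom 9 rose, where 9.67% did. The count was 8 to 12 without any single library other than the third Col library, where 1798 to 2040 of all tested genes rose. Without the third Col library the count was 22, where 3364 of all tested genes rose. Among 16 other proteasome subunits 6 rose, with a median log2 change of 0.21. With median-ratio scaling, quantile normalization or limma-voom the count was 2, where 9.22%, 8.71% and 9.67% of all tested genes rose. It was also 2 without any single library other than the third Col library, where 1798 to 2040 of all tested genes rose. RPN7, a lid subunit, averaged 97.3 ± 1.05 TPM in tsk-4 and 78.1 ± 3.16 TPM in Col (SD, n = 3 each; log2 change 0.32, limma adjusted p = 0.006). RPN8B, the second RPN8 gene, averaged 15 ± 1.19 TPM in tsk-4 and 10.7 ± 0.713 TPM in Col (log2 change 0.47, adjusted p = 0.0123). RPN2B and RPN5A also rose, by log2 changes of 0.28 and 0.25 (adjusted p = 0.0291 and 0.0376), and neither was called with median-ratio scaling. RPN7 and RPN5A overlap another annotated gene, so part of their reads is uncertain.

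Among 6 tested assembly factors, activators and regulators, 3 rose, where 14.9% of all tested genes rose. PTRE1, the Arabidopsis homologue of the proteasome regulator PI31, averaged 32.5 ± 0.935 TPM in tsk-4 and 23.9 ± 1.05 TPM in Col (SD, n = 3 each; log2 change 0.43, limma adjusted p = 0.00415). PA200, an alternative cap of the core, averaged 23.1 ± 0.279 TPM in tsk-4 and 17.1 ± 0.421 TPM in Col (log2 change 0.42, adjusted p = 0.00535). UMP1A, a chaperone of core assembly, averaged 39.0 ± 3.30 TPM in tsk-4 and 30.5 ± 3.23 TPM in Col (log2 change 0.35, adjusted p = 0.0342), and was not called with median-ratio scaling, quantile normalization or limma-voom. NAC53 and NAC78, transcription factors known in Arabidopsis to induce proteasome genes under proteasome stress, had log2 changes of 0.05 ± 0.10 and 0.06 ± 0.07 (adjusted p = 0.75 and 0.6), and these were below 0 with median-ratio scaling, quantile normalization and limma-voom. The RNA of NAC53 was 14 ± 0.764 TPM in tsk-4 and 13.5 ± 1.28 TPM in Col. That of NAC78 was 53.5 ± 3.8 TPM in tsk-4 and 51.2 ± 0.751 TPM in Col, and 2 genes on the other strand overlap NAC78. RNA levels do not show protein activity, and whether either factor has a part in the change was not tested. UMP1B, which lies wholly within another gene on the same strand, is listed at 0 in all libraries.

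Among 11 genes for ubiquitin and its activating enzymes, 4 rose, where 14.9% of all tested genes rose. The largest rise of the members and listed genes was that of UBA2. UBA2, 1 of the enzymes that activate ubiquitin, averaged 50.1 ± 1.62 TPM in tsk-4 and 23.6 ± 1.04 TPM in Col (SD, n = 3 each; log2 change 1.07 ± 0.07, limma adjusted p = 2.72e-05). Its paralogue UBA1 averaged 114 ± 1.80 TPM in tsk-4 and 95.3 ± 2.84 TPM in Col (log2 change 0.26, adjusted p = 0.0112). The polyubiquitin genes UBQ4 and UBQ11 rose by log2 changes of 0.53 and 0.25 (adjusted p = 0.000362 and 0.0248), with UBQ4 at 84.3 ± 1.52 TPM in tsk-4 and 58.1 ± 1.39 TPM in Col. With median-ratio scaling 2 of the 11 rose, UBA2 and UBQ4, where 9.22% of all tested genes rose. Without the second Col library 2 rose, where 1798 of all tested genes rose. Polyubiquitin genes are made of near-identical repeats, so the split of reads among them is uncertain.

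Among 14 shuttle factors, CDC48 proteins and deubiquitinases, 5 rose, where 14.9% of all tested genes rose. CDC48B averaged 18.1 ± 0.559 TPM in tsk-4 and 11.7 ± 0.987 TPM in Col (SD, n = 3 each; log2 change 0.61, limma adjusted p = 0.00264). CDC48A, the abundant form of this ATPase that extracts ubiquitinated proteins, averaged 314 ± 7.96 TPM in tsk-4 and 265 ± 3.45 TPM in Col (log2 change 0.24, adjusted p = 0.00968). DDI1, a ubiquitin receptor in yeast, and UBP6, a deubiquitinase of the proteasome, rose by log2 changes of 0.36 and 0.30 (adjusted p = 0.0175 and 0.0276), and DDI1 overlaps another annotated gene. Of these only CDC48B was called with median-ratio scaling, where 9.22% of all tested genes rose. The list had 2 calls with quantile normalization or limma-voom, where 8.71% and 9.67% of all tested genes rose. It had 1 call without the third tsk-4 library, where 1822 of all tested genes rose. It had 2 without the second tsk-4, the first Col or the second Col library, where 1798 to 2040 of all tested genes rose. The COP9 signalosome, a complex related to the proteasome lid, had no called gene among 10, and none was called by limma-voom. An unadjusted limma p under 0.05 was found for 3 of the 10, where 6551 of the 19574 tested genes had one. Without the third Col library 2 of the 10 rose, where 3364 of all tested genes rose. The median log2 change of the COP9 genes was 0.19. Its genes of highest mean TPM were CSN7 and CSN2. CSN7 had 37.7 ± 0.909 TPM in tsk-4 and 35 ± 2.79 TPM in Col (log2 change 0.11). CSN2 had 36.5 ± 2.23 TPM in tsk-4 and 31.4 ± 2.65 TPM in Col (log2 change 0.22). The difference between the lists was not tested.

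**Figure D5:**
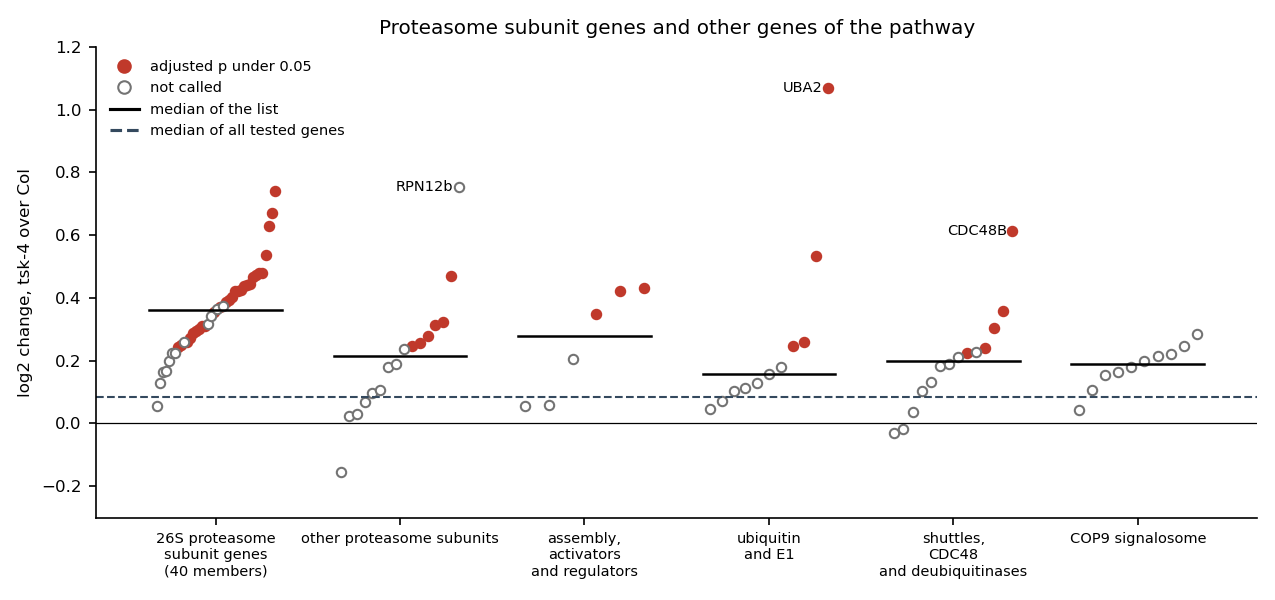
Log2 change of the 40 members and of the tested genes of 5 pathway lists in tsk-4 over Col (y axis, log2 scale; each point is 1 gene, filled for an adjusted p under 0.05), with a bar at the median of each list and a dashed line at the median of all tested genes. The list medians are 0.36 for the members and between 0.16 and 0.28 for the other lists, and UBA2 is highest at 1.07.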

How the data were processed

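RNA-seq of 3 tsk-4 and 3 Col libraries was analysed from a table of gene TPM that the authors deposited. The submitters' processing notes name TAIR10 as the build and list DESeq2 1.26.0, HTSeq 0.11.2, HISAT2 2.1.10 and fastp 0.20.1, with settings not given in the sources used here. Every library sums to 1000000 TPM, and the length behind a value is the full gene span. That span is in the RefSeq annotation TAIR10.1, which matched 33056 of 33189 genes. Reads were recovered as TPM times span times 1 constant per library.

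Genes that reached 1 TPM in 3 or more libraries were tested on log2(TPM + 0.5), which understates changes of low genes, by limma-trend (limma 3.58.1, R 4.3.3). The script was checked on simulated data, where recovery was required of changes of log2 size 1 but not of smaller ones. Adjustment followed Benjamini and Hochberg, with calls under 0.05. limma-voom used genes with at least 10 reads in all. Sums and copy shares were compared with two-sided exact permutation tests. Exon length was the union of annotated exons. Alternatives were pseudocounts of 0.1 and 1, no filter, median-ratio scaling, quantile normalization, limma-voom on reads, a replicate block and leaving out each library. Biopython 1.88, matplotlib 3.10.9, SciPy 1.17.1, pandas 2.3.3 and NumPy 2.4.6 under Python 3.11.15 served the rest.

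The named genes were TSK, all 40 members, and from each pathway list up to 4 called genes by adjusted p. Where no gene was called, the 2 of highest mean TPM were named. NAC53, NAC78 and UMP1B were named after their values were seen. The members and lists were chosen with earlier results of these data known.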

Additional observations from a re-analysis of the deposited data

How the results depend on the processing

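The direction of the 40 members' changes was kept under every alternative with 1 exception: RPT2b, not called in any, turned to -0.036 (median-ratio scaling), -0.051 (quantile normalization) and -0.037 (limma-voom). Among the pathway genes that were named and not called, CSN7 turned to -0.003 with quantile normalization, NAC53 to between -0.044 and -0.031 and NAC78 to between -0.045 and -0.031 over the same 3 alternatives. Median-ratio scaling called 1804 of all tested genes higher and 1609 lower, 18 members and 7 pathway genes higher. Quantile normalization called 1704 higher and 1660 lower, 17 members and 9 pathway genes higher. limma-voom called 1954 genes lower and 9 pathway genes higher. The median log2 change of the members was 0.27 (median-ratio scaling), 0.25 (quantile normalization) and 0.27 (limma-voom). These scalings put the median gene near 0, by construction, where TPM as deposited had it at 0.08. Leaving out 1 library at a time gave 1798 to 3364 genes higher and 507 to 1170 lower, 18 to 36 members higher, 8 to 22 pathway genes higher, member medians of 0.30 to 0.42, log2 ratios of the member sum of 0.30 to 0.39, and 6 to 8 pairs without overlap. The fewest members, 18, were called without the second Col library. Pathway genes numbered 9 without tsk-4 2, 8 without tsk-4 3, 9 without Col 1 and 8 without Col 2. Pseudocounts of 0.1 and 1 and no filter each moved 1 member at most across the threshold. Exon or span length gave the same 6 as the number of pairs without overlap.

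Same-numbered libraries had correlations of 0.115, -0.0868 and -0.109 in their deviations from the genotype means. The largest correlation between a tsk-4 and a Col library, 0.248, was that of the second tsk-4 and the third Col library. With 3 libraries a genotype, these values cannot tell whether libraries of the genotypes are paired or share a batch. With a replicate block 25 members rose, 2310 genes rose and 750 fell over all genes, and 12 pathway genes rose. Each member had at least 132 reads in every library, and 3 libraries a genotype limit the exact tests to p = 0.1.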
